A study of Mus musculus with 238 samples.

Results

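Kirrel2 and Kirrel3 are 2 of the 21076 gene rows of a count table from brain regions and liver of old mice, and they were taken as the rows of those names in every library. The pair was chosen on the dietary contrast of these data, in which Kirrel2 ranked 2 of 15616 genes by p across brain regions, so the dietary values of both genes, p-values included, describe what the choice rested on and test nothing. The order of brain regions, the plasma experiment and the companions of each gene were not part of that choice. The family has a further gene with a row, Kirrel (also called Kirrel1), and an antisense transcript within Kirrel3, Kirrel3os.

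Kirrel proteins, also known as Neph proteins, are membrane-spanning adhesion molecules with immunoglobulin domains outside the cell, through which they bind copies of themselves or the related protein nephrin (Nphs1) on a neighbouring cell. Kirrel1 and nephrin form part of the filtration barrier between the foot processes of kidney podocytes. In the olfactory system Kirrel2 and Kirrel3 mark different sets of olfactory sensory neurons, whose levels follow neuronal activity, and they help axons of like neurons to converge on the same glomerulus of the olfactory bulb. In the hippocampus Kirrel3 takes part in the synapses that mossy fibres of dentate granule cells make on inhibitory neurons.

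In GENCODE M21 on GRCm38, the build named in the submitters' processing notes, Kirrel2 lies at chr7:30447534-30457690 on the minus strand with 3939 exonic bases, and 0 of them overlap another gene. Kirrel3 lies at chr9:34485894-35036716 on the plus strand with 6454 exonic bases, again with 0 overlapped. Kirrel3os (chr9:34918233-34929509, minus strand) lies within the span of Kirrel3 without sharing exonic bases with it, and because the libraries carry no strand, unspliced Kirrel3 RNA and Kirrel3os cannot be told apart there. Kirrel2 stands head to head with Nphs1 (chr7:30458315-30487223, plus strand), 624 bases away, and tail to head with Aplp1, a neuronal relative of the amyloid precursor protein, across 1998 bases on the other side. The stretch before the Kirrel2 start faces Nphs1, so it is shown here for the comparison of these neighbours made further on. It covers chr7:30457516-30457765 of GRCm38.p6 (RefSeq promoter table), the 250 bases before the start of the coding transcript at 30457515, written 5′ to 3′ on the minus strand, with the GC box (GGGCGG, the motif bound by Sp1-type factors) in capitals. Of these bases 175, the GC box included, lie within the gene's span given above, which reaches past the coding transcript through noncoding GENCODE transcripts of Kirrel2, and 75 lie beyond it.
Kirrel2 promoter: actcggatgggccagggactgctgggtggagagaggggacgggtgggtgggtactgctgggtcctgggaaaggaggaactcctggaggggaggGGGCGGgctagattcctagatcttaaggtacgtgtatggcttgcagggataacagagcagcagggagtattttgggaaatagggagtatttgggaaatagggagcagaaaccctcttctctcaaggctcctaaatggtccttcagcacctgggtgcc
A search of both strands found the GC box 1 time, a motif that 32.7% of all 32851 promoters of this length hold. The E-box CACGTG (held by 6.02% of promoters), the cAMP response element TGACGTCA (1.55%) and the TATA box TATAAA (12.4%) had 0 matches in these letters. The glucocorticoid response element, held by 0.00913% of promoters, also had 0 matches. The stretch had 56.4% G and C bases against a median of 52.4% over all promoters. Its count of CpG (a C followed by a G) was 4, against a median of 6. No promoter of Kirrel3 was matched in the table.

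The mice were of the C57BL/6JN strain and 19 months old. The diet experiment used females that were fed freely (AL, mice 63, 66, 68 and 69) or dietary restricted (aDR, mice 61, 62, 64, 65 and 67; labelled DR in liver), and the plasma experiment used males that received plasma of young mice (YMP, mice 73, 77 and 81) or saline (PBS, mice 72, 76, 80 and 84) into the retro-orbital sinus. Sex and experiment cannot be told apart. Bulk RNA of 15 brain regions was sequenced in 229 libraries (58 AL, 73 aDR, 54 PBS and 44 YMP), with 9 liver libraries from the diet experiment. Most regions had all mice of both groups. Diet corpus callosum had 4 aDR against 3 AL, entorhinal cortex 5 against 3 and hypothalamus 4 against 4. In the plasma experiment pons, hypothalamus, visual cortex, cerebellum and posterior hippocampus had 3 YMP against 3 PBS, and corpus callosum had 2 against 3.

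Library totals ran from 605614 to 32410417 counts (median 8444258), and 6 libraries were under 2000000. Kirrel3 had 55 to 2227 counts per brain library (median 454). Kirrel2 was sparser, with 1 to 343 counts (median 40) and under 10 counts in 20 of the 229 libraries. Levels below are CPM, counts scaled to a common library size (after TMM normalization) on a single scale for all brain libraries, and "per kb" is CPM divided by the exonic length in kilobases. Markers of medium spiny, cerebellar, hypothalamic and thalamic neurons set the matching regions apart, in 13 of 16, 15 of 15, 13 of 14 and 16 of 16 libraries. Olfactory bulb markers did so in 8 of 16 libraries, since a pons library reached 1570 CPM, the median of the bulb. Choroid plexus libraries did not stand apart. Their summed choroid plexus markers began at 156 CPM, 0 of the 16 lay above every other library (an SVZ library reached 19400), and they held neuronal RNA, with Snap25, a synaptic vesicle fusion protein, at 2060 to 3750 CPM. In the pons the library of aDR mouse 67 had the lowest summed neuron markers, 2960 CPM against 4390 to 9040 CPM in the other 14. In bulk tissue, fewer cells of a type and less RNA per cell cannot be told apart.

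Kirrel2 was a low-level transcript with its highest levels in cortex, caudate putamen and posterior hippocampus and its lowest in the hypothalamus. Its mean was 9.84 ± 3.44 CPM in visual cortex (SD, n = 15), 9.15 ± 2.01 in motor cortex (n = 16), 8.46 ± 2.3 in caudate putamen (n = 16), 8.18 ± 3.36 in posterior hippocampus (n = 15) and 8.02 ± 2.77 in entorhinal cortex (n = 15). These 5 regions led the order of mean log2 CPM. A middle set was made of the olfactory bulb (6.61 ± 6.41 CPM, n = 16), corpus callosum (5.58 ± 1.71, n = 12), choroid plexus (5.53 ± 2.63, n = 16), anterior hippocampus (5.47 ± 2.44, n = 16) and SVZ (4.47 ± 1.59, n = 16). Medulla (3.19 ± 1.2 CPM, n = 16), thalamus (2.78 ± 0.657, n = 16), cerebellum (2.55 ± 1.17, n = 15) and pons (2.53 ± 1.05, n = 15) were lower, and the hypothalamus was last at 1.52 ± 0.913 CPM (n = 14). The order of regions was similar in both experiments, with r = 0.917 and rho = 0.861 between their 15 region means, which come from different animals but the same dissections and genes.

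Each region was compared with its neighbour in that order within the same mouse, by a two-sided sign-flip permutation test on log2 CPM, with p-values adjusted over the 28 steps of both genes. For Kirrel2, 1 of 14 steps passed, from cerebellum down to hypothalamus, by 0.70 (SD 0.523) on the log2 scale, with cerebellum higher in 12 of 14 mice (adjusted p = 0.0103, permutation). Without the replicate block 0 steps of Kirrel2 passed. Cerebellum was also the higher in 6 of 8 diet mice (0.71), 6 of 6 plasma mice (0.68) and 6 of 7 control mice (0.66), sets too small for a lone step to pass after adjustment (smallest possible adjusted p 0.219, permutation). The next clearest, from posterior hippocampus to corpus callosum, was 0.45 (SD 0.426, 9 of 12 mice, adjusted p = 0.0592, permutation). The other 12 neighbouring pairs had an adjusted p of 0.203 or more (permutation), so these tests do not set their levels apart. A trend over the whole order was not tested.

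**Figure D1:**
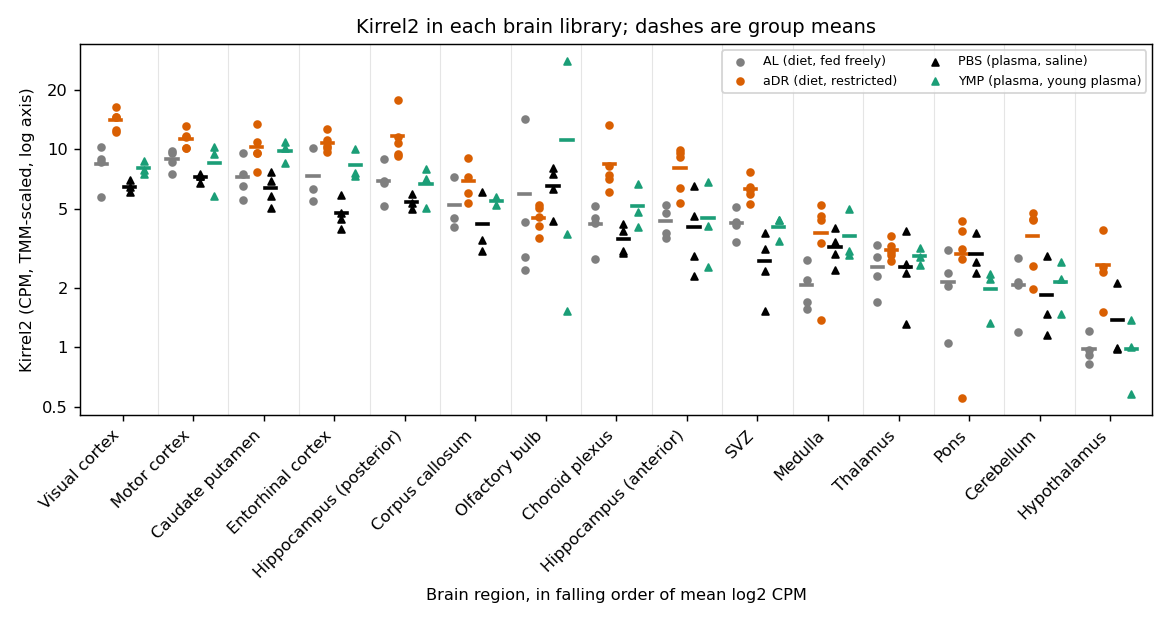
Kirrel2 in each of the 229 brain libraries, in CPM on a log axis, with regions in falling order of mean log2 CPM; points are libraries, colours are the 4 treatment groups and dashes are group means. Visual cortex libraries sit between 5.76 and 16.4 CPM and hypothalamus libraries between 0.578 and 3.89, and the olfactory bulb has the widest spread, from 1.53 to 28 CPM.

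Kirrel3 was far more abundant and followed another map. It was highest in the olfactory bulb (109 ± 8.13 CPM, SD, n = 16), entorhinal cortex (99.9 ± 24.3, n = 15) and cerebellum (94.9 ± 9.88, n = 15). Caudate putamen (69.8 ± 11.2 CPM), thalamus (63.4 ± 17.1), SVZ (58.5 ± 7.18), posterior hippocampus (56.5 ± 13.2), choroid plexus (55.5 ± 10.8), anterior hippocampus (54.7 ± 12) and hypothalamus (49.8 ± 11.1) followed. The lowest means were close together, at 44.4 ± 10.6 CPM in pons, 42.1 ± 4.49 in visual cortex, 41.8 ± 7.47 in corpus callosum, 40.2 ± 7.14 in medulla and 39.8 ± 4.11 in motor cortex. The step from cerebellum down to caudate putamen, 0.46 (SD 0.232) on the log2 scale and present in 15 of 15 mice, was the 1 of 14 that passed (adjusted p = 0.00171, permutation). It was present in 9 of 9 diet mice (0.44) and 6 of 6 plasma mice (0.50), sets again too small for a lone step to pass. Among the 3 leading regions, the steps from olfactory bulb to entorhinal cortex (adjusted p = 0.594, permutation) and from entorhinal cortex to cerebellum (0.993) did not pass. Olfactory bulb and cerebellum, not neighbours in the order, were not tested against each other. Region means of the 2 experiments had r = 0.96 and rho = 0.929 (15 regions).

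**Figure D2:**
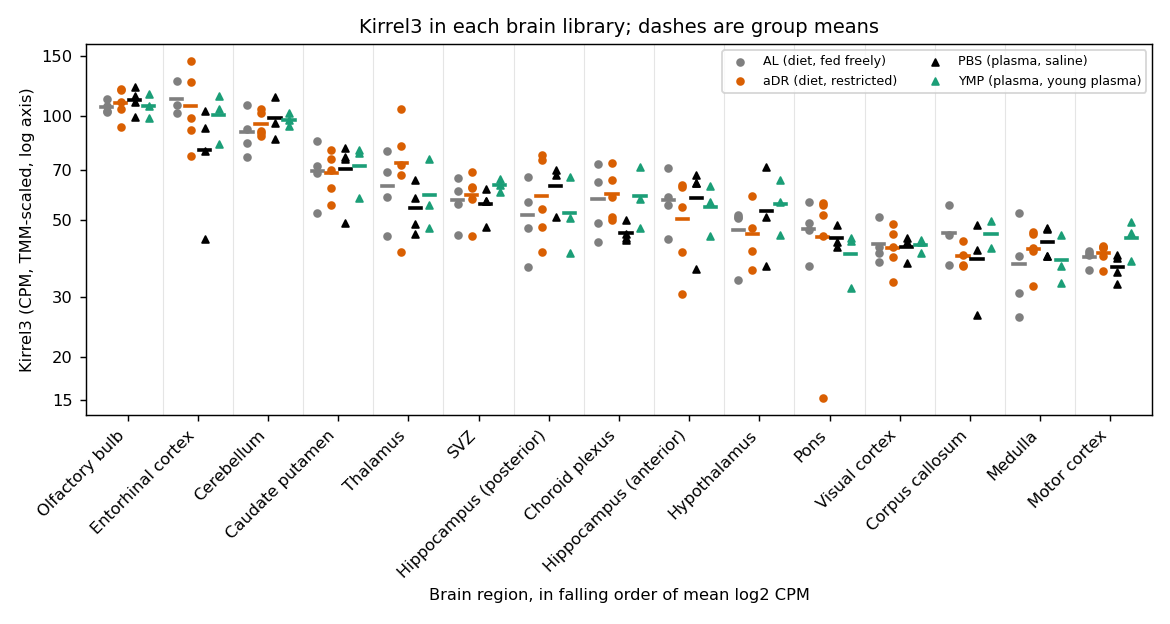
Kirrel3 in each of the 229 brain libraries, in CPM on a log axis, with regions in falling order of mean log2 CPM; points are libraries, colours are the 4 treatment groups and dashes are group means. Olfactory bulb libraries sit between 93.4 and 122 CPM and motor cortex libraries between 32.7 and 49.5, and the low point in the pons, 15.2 CPM, is the library of aDR mouse 67.

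The maps of the members had little in common, with r = 0.026 and rho = -0.086 over the 15 region means. Per kb, Kirrel3 exceeded Kirrel2 in the mean of all 15 regions. The ratio of their mean levels per kb ran from 2.61 in visual cortex and 2.66 in motor cortex to 20 in hypothalamus and 22.7 in cerebellum. Within mice, the log2 ratio of Kirrel3 to Kirrel2 was 3.14 ± 0.55 (SD) higher in cerebellum than in visual cortex, in 14 of 14 mice that had both regions. Against motor cortex the cerebellum was higher by 3.11 ± 0.51 in 15 of 15 mice, and the olfactory bulb by 2.23 ± 1.04 in 15 of 16. These within-mouse differences are descriptions of regions picked for their distance in the order.

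Kirrel, the family member of kidney podocytes, was near the limit of these libraries. Its region means ran from 0.64 ± 0.347 CPM in medulla (n = 16) to 2.54 ± 0.695 CPM in the olfactory bulb (n = 16), so the olfactory bulb led for Kirrel as it did for Kirrel3. Nphs1, the partner that starts next to Kirrel2, ran from 0.459 ± 0.231 CPM in hypothalamus (n = 14) to 1.81 ± 0.833 CPM in posterior hippocampus (n = 15). In liver Kirrel2 had 0 counts in all 9 libraries, which at totals of 3502188 to 12126755 counts allows up to 0.247 to 0.857 CPM per library (3 counts, counting error only). Kirrel3 had 0 to 3 counts in the liver libraries, at or under the same limit.

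Genes with the region pattern most like each member were sought by Pearson r over the 15 region means of control libraries among 14238 genes, as a description. For Kirrel2 they were Lrrc8b, a subunit of volume-regulated anion channels (r = 0.97), Arf5, a small GTPase of membrane traffic (0.958), Josd1, a deubiquitinase (0.929), Gria3, an AMPA receptor subunit (0.929), and Cbx6, a Polycomb protein (0.926). For Kirrel3 the closest was its own antisense transcript Kirrel3os (r = 0.929), whose reads can be shared with Kirrel3, followed by Bricd5 (0.896), Bahcc1 (0.841), the ubiquitin-conjugating enzyme Ube2e3 (0.835) and Desi2 (0.829). Kirrel3os had its highest mean in cerebellum, 4.39 ± 0.874 CPM (n = 15), where Kirrel3 ranked 3.

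Variation between libraries of the same group gave other companions. Over 229 brain libraries, each taken around the mean of its region and treatment, Kirrel3 went most closely with Pkia, an inhibitor of protein kinase A (r = 0.611), the adhesion molecule Ncam1 (0.577), AC121821.2 (0.557), the glutamate dehydrogenase Glud1 (0.544) and the neuronal glucose transporter Slc2a3 (0.543). Its r with the summed markers of inhibitory neurons was 0.464. The genes closest to Kirrel2 were Gpx6 (r = 0.465), Ugt2a2 (0.465), Cyp2a5 (0.462), Scgb1c1 (0.452) and CAAA01066123.1 (0.447). Of them Gpx6, Ugt2a2, Cyp2a5 and Scgb1c1 are known from the lining of the nose. Ugt2a2 and Cyp2a5 are enzymes that modify odorants and other foreign compounds. In control libraries Ugt2a2, Cyp2a5 and Scgb1c1 had their highest region mean in the olfactory bulb (13.9, 19.8 and 15.5 CPM). Gpx6 had its highest in caudate putamen (29.6 CPM, against 3.85 in olfactory bulb), where Cyp2a5 had 5.23 CPM. Without the 16 olfactory bulb libraries no gene of that list stayed among the 5 closest. Over the 213 other libraries the list became Gng7 (0.455), a G protein subunit of the striatum, Ajm1 (0.413), Sh2d5 (0.409), Arhgap20 (0.404) and Clip4 (0.403). Kirrel3 kept its 5 companions without the olfactory bulb. Libraries of a mouse, and depth, are shared in all these points.

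The olfactory bulb held the most variable Kirrel2 of any region, and the spread rested on 2 libraries. Among AL mice Kirrel2 was 2.46, 2.85 and 4.27 CPM in mice 63, 66 and 68 and 14.2 CPM in mouse 69. Among YMP mice it was 1.53 CPM in mouse 73, where it rested on 1 count in the library of 605614, 3.72 in mouse 77 and 28 in mouse 81 (343 counts). The aDR libraries lay between 3.56 and 5.23 CPM (n = 5) and the PBS libraries between 4.34 and 8.08 (n = 4).

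Those 2 libraries also had the highest sums of olfactory sensory neuron markers, though not the highest value of each marker. Cnga2, the channel of olfactory sensory neurons that opens on odorant signals, was 24.2 CPM in AL mouse 69 and 27 CPM in YMP mouse 81, against 0.791 to 9.01 CPM in the other 14. Omp, the olfactory marker protein of mature sensory neurons, was 277 and 295 CPM in them and 35.5 to 251 CPM elsewhere. Stoml3, a membrane protein of these neurons, was 136 and 131 CPM against 11.6 to 79.5 CPM. The G protein subunits Gng13 (122 and 113 CPM) and Gnal (119 and 129 CPM) overlapped the others, which reached 117 CPM for Gng13 in AL mouse 63 and 125 CPM for Gnal in aDR mouse 65. The summed 5 markers of olfactory sensory neurons were 679 and 696 CPM, against 159 to 533 CPM in the other libraries. Of the 4 genes named above as known from the nasal lining, both enzyme genes were highest in the same libraries. Cyp2a5 was 55 and 206 CPM in the 2 libraries and 0 to 33.7 CPM in the others. Ugt2a2 was 39 and 172 CPM against 0 to 23.1. Gpx6 and Scgb1c1 were high in YMP mouse 81 (49.8 and 265 CPM) but not in AL mouse 69 (3.37 and 9.56 CPM), with 0 to 12 and 0 to 52 CPM in the others. Over all 16 libraries the r of log2 Kirrel2 with log2 Cnga2 was 0.75 (rho 0.69) and with Cyp2a5 0.84 (rho 0.87). Without the 2 libraries r was 0.38 (rho 0.54) with Cnga2 and 0.79 (rho 0.8) with Cyp2a5, over 14. Cyp2a5 and Ugt2a2 had been picked as close to Kirrel2 in these same libraries, so their r is no separate evidence. Kirrel3 did not follow: it was 99.1 and 112 CPM in the 2 libraries, within the 93.4 to 122 CPM of the others, with r = -0.12 to Kirrel2 over 16. The part of epithelial RNA in the Kirrel2 values of the olfactory bulb was not tested.

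**Figure D3:**
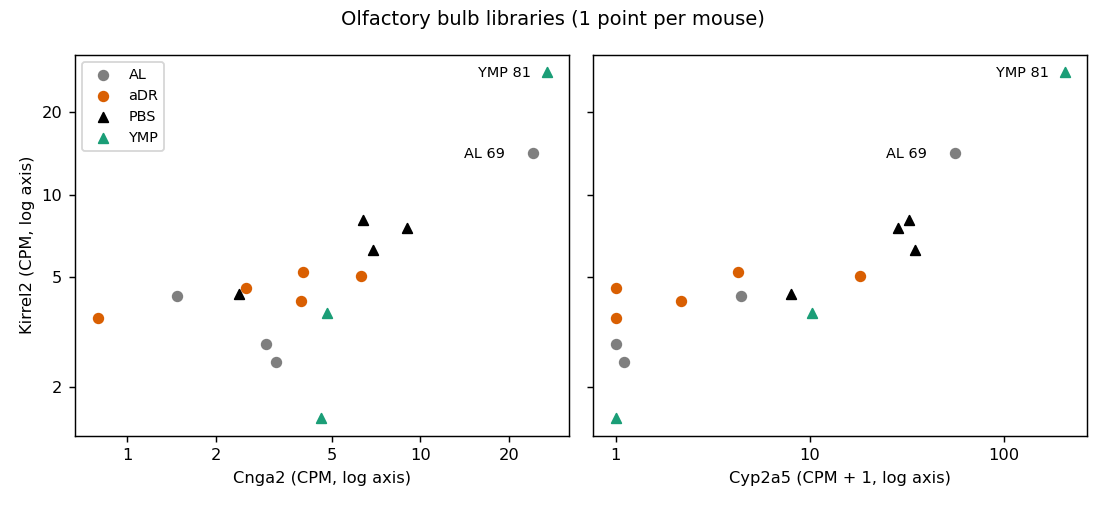
Kirrel2 in the 16 olfactory bulb libraries, in CPM on log axes, against Cnga2 (left, in CPM) and Cyp2a5 (right, in CPM plus 1); points are mice and colours are treatment groups. The libraries of AL mouse 69 (14.2 CPM of Kirrel2) and YMP mouse 81 (28 CPM) stand at the upper right in both panels.

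In the choroid plexus libraries both members ran against the sum of choroid plexus markers. In the 4 libraries with the fewest choroid plexus markers (156 CPM in YMP mouse 73, 674 in AL mouse 66, 887 in aDR mouse 67 and 1010 in AL mouse 63), Kirrel3 was 71.2, 64.4, 73.1 and 73 CPM, while the other 12 libraries lay between 43.2 and 65.2 CPM. Over the 16 libraries the r of log2 Kirrel3 with the log2 marker sum was -0.8 (rho -0.72), and that of Kirrel2 was -0.51 (rho -0.73). The highest Kirrel2 of the aDR group (13.2 CPM, mouse 67) and of the YMP group (6.68 CPM, mouse 73) stood in the library with the fewest choroid plexus markers of its group, while in the AL group the fewest were in mouse 66 (Kirrel2 4.52 CPM) and the highest Kirrel2 in mouse 63 (5.2 CPM), and in the PBS group both were in mouse 72 (7870 CPM of markers, 4.2 CPM of Kirrel2). Both treatment groups of the diet experiment held such libraries, with marker sums of 674 to 8690 CPM in AL and 887 to 7160 CPM in aDR. The part of surrounding brain tissue in the values of this dissection was not tested.

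In the diet experiment, the contrast on which the pair was selected, Kirrel2 was higher in restricted than in freely fed mice in nearly every region, and Kirrel3 was not. In visual cortex Kirrel2 was 14.6, 16.4, 12.3, 14.6 and 12.5 CPM in the aDR mice and 5.76, 10.3, 8.94 and 8.61 CPM in the AL mice. The groups did not overlap there, and the log2 change was 0.70 (SE 0.142; adjusted p of edgeR's quasi-likelihood test 0.0453). In hypothalamus it was 1.51, 2.55, 2.41 and 3.89 CPM in aDR against 0.827, 0.918, 0.963 and 1.21 CPM in AL, a log2 change of 1.42 (SE 0.337) at counts of 15 to 33 and 5 to 21 per library. In anterior hippocampus it was 9.95, 9.53, 6.4, 9.19 and 5.34 CPM against 5.23, 4.78, 3.58 and 3.77 CPM. Restricted mice were above all freely fed mice in each of these regions, and also in posterior hippocampus, choroid plexus, motor cortex and SVZ, 7 of 15 regions in all (3.04% of all gene by region tests of this experiment had groups that did not overlap).

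Over the 15 regions the log2 change of Kirrel2 was positive in 14, with a median of 0.65, and the exception was the olfactory bulb at -0.31 (SE 0.44). Leaving out AL mouse 69, a library with a high sum of olfactory neuron markers, turned that value to 0.48. Visual cortex was the 1 region of 15 where Kirrel2 was called, and 11 regions had an unadjusted p under 0.05. For all genes, 0.0525% of the gene by region tests were called and 6.24% had an unadjusted p under 0.05, 0.202% of genes were called in visual cortex, and 4.47% of genes tested in at least 14 regions were higher in all but at most 1 of them. Because this contrast chose the gene, nothing is read from its place against these shares. The visual cortex call did not survive leaving out aDR mouse 61, 62, 64 or 65 or AL mouse 63, 68 or 69 (adjusted p of edgeR 0.0762 to 0.151, log2 0.61 to 0.72).

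**Figure D4:**
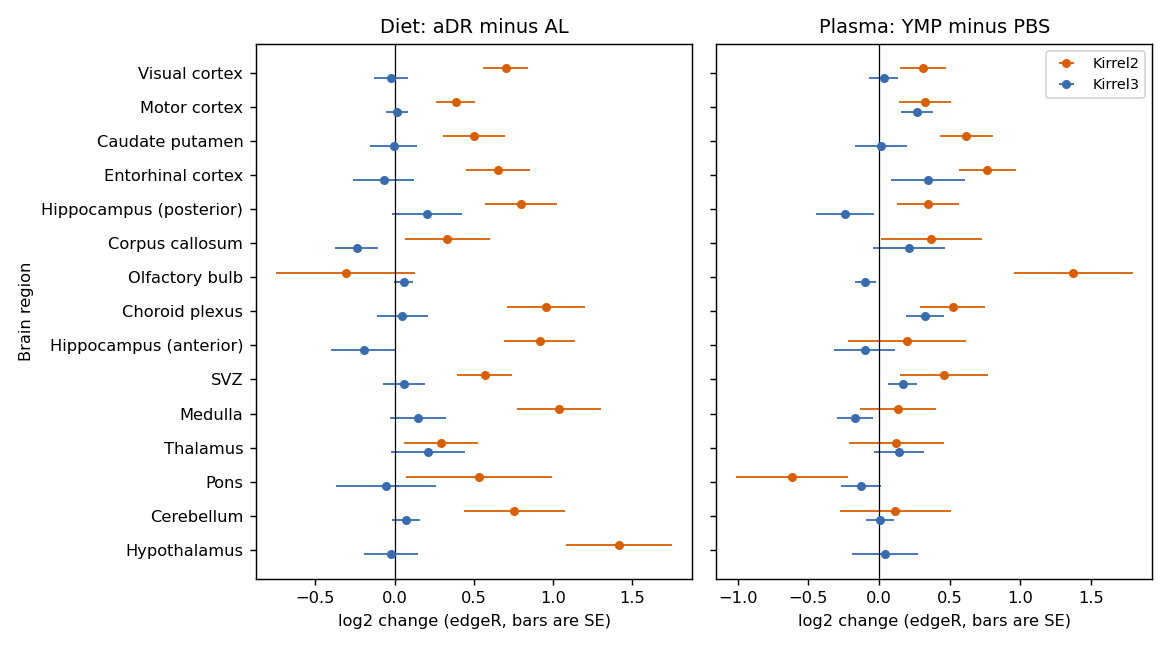
Log2 change of Kirrel2 and Kirrel3 in each brain region, treated minus control, in the diet experiment (left) and the plasma experiment (right); points are edgeR estimates and bars are standard errors. Kirrel2 lies right of 0 in 14 of 15 regions of the diet experiment and in 13 of 14 of the plasma experiment. Kirrel3 lies on both sides of 0, from -0.24 to 0.21 in the diet experiment and from -0.24 to 0.35 in the plasma experiment.

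Across regions each mouse gave 1 value per gene, its mean deviation in log2 CPM after region was taken out. For Kirrel2 these values were 0.318, 0.199, 0.353, 0.199 and 0.234 in the aDR mice and -0.328, -0.37, -0.227 and -0.378 in the AL mice. The groups did not overlap, as held for 8.3% of all genes, and the difference was 0.59 (SE 0.0464, 95% interval 0.482 to 0.691; limma adjusted p 0.00267), in a fit that called 0.922% of genes, 0.525% as higher in aDR. It was 0.63 without the olfactory bulb. Whether the change differed between regions was asked with an edgeR F test of region by treatment terms. It gave Kirrel2 an unadjusted p of 0.0538 and an adjusted p of 1, and called 0.0128% of genes. In simulated data this test found 12 of 100 genes with a log2 change of 1 in visual cortex alone, so it can miss such differences.

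Kirrel3 mouse values were 0.144, 0.026, -0.009, 0.013 and -0.155 in the aDR mice and 0.143, -0.083, -0.037 and -0.043 in the AL mice, fully interleaved. Its difference was 0.009 (SE 0.0649, 95% interval -0.138 to 0.155). Within regions its log2 change ran from -0.24 (SE 0.138) in corpus callosum to 0.21 (SE 0.233) in thalamus, with 8 regions positive, 7 negative and 0 of 15 with an unadjusted p under 0.05. In the pons, where the library of aDR mouse 67 held 15.2 CPM against 45 to 55.9 CPM in the other aDR mice, the change was -0.05 with that mouse and 0.15 without it, and that of Kirrel2 was 0.53 and 0.76. The family member Kirrel differed by -0.06 across regions (SE 0.0762, limma adjusted p 0.774) and Kirrel3os by 0.03 (SE 0.108, adjusted p 0.935).

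The neighbours of Kirrel2 on the chromosome had values of another size or sign. Nphs1, which starts 624 bases away and points the other way, had mouse values of -0.113, -0.158, -0.085, -0.1 and 0.001 in the aDR mice and 0.26, 0.041, 0.051 and 0.105 in the AL mice. The groups did not overlap, as held for 8.3% of all genes, and the difference of -0.20 (SE 0.0513) did not pass the threshold (limma adjusted p 0.104). Nphs1 was a low-level transcript that passed the count filter in only 6 of 15 diet regions. Of its 6620 exonic bases, 780 overlap other genes. Aplp1 on the other side differed by 0.03 (SE 0.0571, adjusted p 0.821), and St3gal4, a sialyltransferase next to Kirrel3, by 0.10 (SE 0.0288, adjusted p 0.145). Deviations of Kirrel2 and Nphs1 around their group means had r = 0.302 over 229 libraries, and Kirrel2 and Aplp1 had 0.176.

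Among 21 genes whose products bind Kirrel proteins or nephrin or act with them at the podocyte junction, 0 were called higher and 1 lower in aDR, Podxl, a sialomucin of podocytes and blood vessels (-0.27, SE 0.0483, limma adjusted p 0.0435), where 0.397% of all genes were called lower. Among the scaffold proteins that bind the tails of these receptors, Magi1 (-0.13, limma adjusted p 0.182), Tjp1 (-0.12, 0.136) and Pard3 (-0.14, 0.0589) did not pass. They were named after their values were seen, and the list holds other scaffold proteins. The median of the list was -0.038, with 8 of 21 positive, against a median of -0.006 over all genes. Of 16 genes of olfactory axon sorting 0 were called in either direction, with a median of -0.095 and 2 of 16 positive. Of 27 other immunoglobulin adhesion genes 0 were called, with a median of -0.093 and 2 of 27 positive. At an unadjusted p under 0.05 there were 6, 3 and 5 genes in these lists, against 16.1% of all genes. The markers of endothelial cells, where Podxl is made, had 2 of 6 genes called lower, Cldn5 and Flt1. Their median was -0.187, and 2 of 6 were positive. Neuron markers had 0 of 5 genes called and a median of 0.026. The part of vessel RNA in the Podxl value was not tested.

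The plasma experiment, with other animals, played no part in the choice of the genes, so its comparisons were tested. Kirrel2 was higher in YMP than in PBS mice in 13 of 14 regions tested, a pattern held by 1.84% of genes (higher in all but at most 1 region). Hypothalamus was not tested because its counts were too low, 4 to 10 in YMP and 7 to 53 in PBS libraries, and its mean was lower in YMP (0.981 ± 0.395 CPM, SD, n = 3) than in PBS (1.36 ± 0.654, n = 3). The sizes were small, with a median log2 change of 0.335, and edgeR called Kirrel2 in 0 of 14 regions, as did DESeq2, against 0.0127% of all gene by region tests called by edgeR. Unadjusted p-values under 0.05 were found in 3 regions, where 6.11% of all tests had one.

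In caudate putamen Kirrel2 was 10.1, 8.52 and 10.9 CPM in the YMP mice and 5.79, 5.08, 6.88 and 7.68 CPM in the PBS mice, which edgeR put at 0.62 on the log2 scale (SE 0.187, adjusted p 0.474). In entorhinal cortex it was 7.63, 9.99 and 7.37 CPM against 4.77, 3.98, 4.46 and 5.91 CPM, a change of 0.77 (SE 0.201, adjusted p 0.91). All treated mice were above all controls in both, which 9.29% of all gene by region tests of this experiment showed in either direction. In visual cortex the groups were also apart, 7.5, 8.78 and 7.85 CPM against 6.06, 6.42 and 6.96 CPM (0.31, SE 0.162, adjusted p 0.999). Pons was the exception among the regions tested, with 2.35, 1.33 and 2.2 CPM in YMP below 3.76, 2.71 and 2.36 CPM in PBS (-0.62, SE 0.395, adjusted p 1), at 4 to 22 counts in YMP libraries.

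The largest plasma change of Kirrel2, 1.37 (SE 0.42, edgeR adjusted p 0.46) in the olfactory bulb, rested on a single library. Without YMP mouse 81, a library with a high sum of olfactory neuron markers, it was -0.996 (adjusted p 0.73). Without YMP mouse 77 it rose to 1.88 and was called (adjusted p 0.000444), on the library of mouse 81 and the 1 count of mouse 73. The direction in the olfactory bulb therefore depended on which YMP mice were counted. In anterior hippocampus, medulla, thalamus and cerebellum, leaving out a mouse also turned the small positive change of Kirrel2 negative.

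Across regions the Kirrel2 values were 0.022, 0.011 and 0.342 in the YMP mice and 0.151, -0.266, -0.116 and -0.144 in the PBS mice. The groups overlapped through PBS mouse 72 (10.1% of all genes had groups that did not), and the difference was 0.22 (SE 0.12, 95% interval -0.063 to 0.501, limma adjusted p 0.668). That fit called 0% of the 15768 genes, with 1275 (8.09%) at an unadjusted p under 0.05. Without YMP mouse 81 the difference was 0.11, and without PBS mouse 72 it was 0.31. A limma voom fit of all libraries, with the mouse as a replicate block, weights libraries by depth and called Kirrel2, at 0.47 (adjusted p 0.0182), in a fit that called 3.08% of genes. Without the olfactory bulb, chosen after seeing its 2 libraries, the same blocked fit gave 0.39 (adjusted p 0.0152; 2.86% of genes called). Over these and the other alternatives the adjusted p ran from 0.000896 to 0.906. The lowest came from a voom fit with no replicate block, which counts the regions of a mouse as independent and called 2629 genes. Of 7 choroid plexus markers 0 were called across regions, but 7 of 7 had a negative difference at an unadjusted p under 0.05 (median -1.196; summed levels in choroid plexus of 156 to 15900 CPM in YMP and 7870 to 10400 CPM in PBS), and neuron markers had a median of 0.039 with 1 of 5 at such a p. Without choroid plexus and corpus callosum the Kirrel2 difference was 0.19 (limma adjusted p 0.836). That fit kept SVZ, where a library of the series reached 19400 CPM of these markers, so it does not single out choroid plexus RNA. The part of choroid plexus RNA in the plasma values was not tested.

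**Figure D5:**
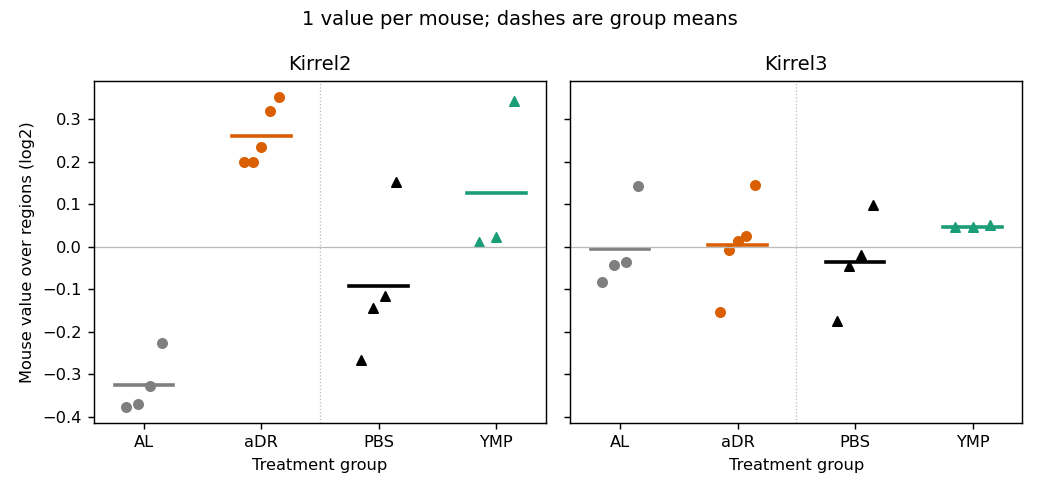
Mouse values of Kirrel2 and Kirrel3 over brain regions, in log2 units around the mean of each experiment; each point is a mouse, dashes are group means and the dotted line parts the experiments, which were centred apart. For Kirrel2 the aDR mice lie between 0.199 and 0.353 and the AL mice between -0.378 and -0.227, while YMP and PBS mice overlap, and for Kirrel3 all 4 groups lie around 0.

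Kirrel3 values were 0.051, 0.045 and 0.045 in the YMP mice and -0.174, -0.045, -0.02 and 0.097 in the PBS mice. The difference was 0.08 (95% interval -0.07 to 0.236, limma adjusted p 0.776). Within regions edgeR called 0 of 15 and DESeq2 0, and unadjusted p-values under 0.05 were found in 2, choroid plexus and motor cortex. In motor cortex Kirrel3 was 49.5, 38 and 45.8 CPM in YMP against 39.6, 38.8, 35.3 and 32.7 CPM in PBS (0.27, SE 0.112, adjusted p 1), with the groups overlapping. In choroid plexus it was 71.2, 57.6 and 47.5 CPM against 45.7, 44.4, 43.8 and 50.2 CPM (0.33, SE 0.135, adjusted p 1), where the highest value belonged to YMP mouse 73, whose choroid plexus markers were lowest. Without that mouse the change was 0.19. The other regions ran from -0.24 (SE 0.206) in posterior hippocampus to 0.35 (SE 0.261) in entorhinal cortex. The edgeR F test for a plasma change that differed between regions gave an adjusted p of 1 for Kirrel2 (unadjusted 0.308) and for Kirrel3 (0.613). It called 0.786% of genes (3 genes without YMP mouse 81, against 124 with that mouse). In simulated data this test found 4 of 100 genes with a log2 change of 1 in visual cortex alone, so it can miss such differences.

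The diet and plasma estimates of Kirrel2 may be set side by side only as values, since the first chose the gene and the experiments differ in sex. They were 0.59 (95% interval 0.482 to 0.691) and 0.22 (-0.063 to 0.501), and the difference between them was not tested. For Kirrel3 they were 0.009 (-0.138 to 0.155) and 0.08 (-0.07 to 0.236). In the plasma experiment 0 genes were called among the 21 partners, the 16 genes of olfactory axon sorting and the 27 immunoglobulin adhesion genes, with 1 gene of each at an unadjusted p under 0.05 and medians of 0.02, -0.057 and -0.02, against -0.004 over all genes.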

How the data were processed

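Each of the 238 libraries is a column of whole-number read counts per gene that the authors deposited in a single table. Reads were trimmed with Trim Galore 0.3.7 and aligned with STAR 2.5.3a to GRCm38, and DESeq2 is also named, per the submitters' processing notes; the counting program and annotation are not given in the sources used here. Full-length cDNA (Smart-Seq2) was tagmented without strand, per the labels' protocols. There were 537 rows without a count and 0 unused columns.

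Within regions, counts were fitted with edgeR 4.0.16 in R 4.3.3 (quasi-likelihood test, filterByExpr with a minimum count of 10 and minimum total of 15, TMM), with Benjamini-Hochberg adjustment over all genes of the region and a threshold of 0.05. DESeq2 1.42.0 was an alternative. Across regions, log2 CPM values (prior count 2) were fitted by region plus mouse, and the mouse terms were tested with limma 3.58.1. The region by treatment F test used a trended dispersion and no mouse term, so it counted the regions of a mouse as independent. Levels are CPM over 16063 genes kept in the brain libraries. Neighbouring regions were compared by sign flips over mice (100000 resamples, scipy 1.17.1). Libraries with a mouse number come from that animal, which pairs regions and not treatments; deviations of libraries from their group means correlated by 0.039 (diet) and 0.071 (plasma) within mice and by -0.005 and -0.012 between mice. The chi-square per degree of freedom between replicates was at least 1.29 over 357 pairs, so no library was counted as a duplicate. The fits were tested on simulated data.

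The members, gene lists and marker lists were chosen with earlier results of these data known. Genes named are the members, their neighbours on the chromosome, the 5 genes closest to each member by r, and up to 3 called genes of a list; Magi1, Tjp1, Pard3, Snap25 and the 5 markers of olfactory sensory neurons were added after their values were seen, as were the lists of closest genes without the olfactory bulb. The labels do not say that mice of a group were handled apart, so p-values measure the spread between these animals. The exceptions are the region by treatment F test and the fits without a replicate block, which count the regions of a mouse as independent.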

Additional observations from a re-analysis of the deposited data

Results flagged for a closer look

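The level of each member in each region and treatment group of 4 or more mice, and the mouse values, were screened for a library far from the rest of its group by Dixon's criterion at 95%. Of 80 groups, 5 held such a library, where chance gives about 4.0. For Kirrel2 they were the olfactory bulb of AL mouse 69 (14.2 CPM, with 2.46 to 4.27 CPM in the other 3 AL mice), described above with its olfactory epithelium markers, and the posterior hippocampus of aDR mouse 61 (17.7 CPM, with 9.24 to 11.5 CPM in the other 4 aDR mice). For Kirrel3 they were low values: the pons of aDR mouse 67 (15.2 CPM, with 45 to 55.9 CPM in the others), the hypothalamus of AL mouse 69 (33.6 CPM, with 50.7 to 51.9 CPM) and the anterior hippocampus of PBS mouse 76 (36.0 CPM, with 63.9 to 67.5 CPM). YMP groups have at most 3 mice and could not be screened.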

How the results depend on the processing

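Of the alternatives tried, those that left out the olfactory bulb were chosen after seeing the data. Across regions the diet difference of Kirrel2 kept its direction and its side of the threshold in all 16 alternatives (0.564 to 0.620 with a mouse left out). Since this contrast chose the gene, refits of the same mice are no separate test of it. The diet difference of Kirrel3, near 0, turned to -0.007 with library totals only and ran from -0.030 to 0.055 with a mouse left out. The number of regions in which Kirrel2 was called ran from 0 to 1 with a mouse left out, in the diet and in the plasma experiment. Leave-one-out values of Kirrel2 changed sign in the diet olfactory bulb (-0.576 to 0.483) and, under plasma, in anterior hippocampus (-0.205 to 0.473), medulla (-0.127 to 0.289), thalamus (-0.058 to 0.403), cerebellum (-0.112 to 0.657, with -0.081 and -0.068 without PBS mice 80 and 84) and olfactory bulb (-0.996 to 1.884); in each only the left-out library differs. The step count of 1 fell to 0 for Kirrel2 without the replicate block, and for both genes with the diet experiment alone, the plasma experiment alone or the control mice alone, where too few mice enter for a lone step to pass.

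The mouse number pairs the regions of an animal and not treated with control mice. With the mouse as a replicate block in voom the plasma difference of Kirrel2 was 0.468, and 0.388 without olfactory bulb. With no replicate block in voom, a fit that counts the regions of a mouse as independent, it was 0.407 (limma voom adjusted p 0.000896). Mouse values gave 0.219, and 0.108 to 0.306 with a mouse left out. Why the fits differ was not tested. Under plasma Kirrel2 was called in voom with and without the block, and not from mouse values. The block itself changed no call of either member across regions. Genes called across regions numbered 144 for diet and 0 for plasma from mouse values, 1474 and 486 with the block in voom, and 2760 and 2629 without it. With a mouse left out, the diet count ran from 14 to 163. Gene calls summed over regions were 108 (diet) and 26 (plasma) with edgeR, 515 and 912 with DESeq2, 185 and 422 with no filter on low counts, and, for plasma, 44 with DESeq2 size factors; in visual cortex under diet they were 27 with edgeR, 44 with DESeq2, 59 with no filter and 16 to 36 with a mouse left out. Genes whose plasma change differed between regions numbered 124, and 3 to 155 with a mouse left out.

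Within single regions, 166 of 174 alternatives for Kirrel2 under diet and 125 of 133 under plasma kept direction and call; for Kirrel3, 24 of 176 and 12 of 143 reversed, and none gained or lost a call. Counts limit Kirrel2 in the hypothalamus, pons and the shallow olfactory bulb library of YMP mouse 73. Single libraries of medulla (2 counts in aDR mouse 62), SVZ, thalamus and cerebellum, and the olfactory bulb of aDR mouse 65, also had under 10 counts. Plasma corpus callosum with a YMP mouse left out has a lone treated sample, assumed to vary like the others.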
